A study of Mus musculus with 8 samples.

Results

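The genes described here encode the fibroblast growth factor (FGF) ligands, their receptors and the feedback genes that FGF signalling switches on. They were taken by name from the expression table: every Fgf symbol ending in a number, Fgfr1 to Fgfr4, and Spry1, Spry2, Spry4, Dusp6, Etv4 and Etv5. This gave 32 of 24421 genes, with 22 Fgf genes, 4 receptors and 6 feedback genes. Of these, 22 reached an expression of 1 FPKM (fragments scaled by transcript length and library size) in at least 2 of the 8 libraries and were tested, and 10 did not.

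The libraries came from WT mouse embryonic stem cells (mESCs, line W9.5) and from Hira-null mESCs of 1 clone, Clone104, both carrying an HA tag on the histone variant H3.3. Hira encodes a chaperone that places H3.3 into chromatin outside DNA replication. Cells were taken undifferentiated at day 0 and after hanging drop differentiation, a method in which cells aggregate in suspended drops, at day 15, when the cultures beat. Each of the 4 groups had 2 libraries, each from its own biological sample, and because the Hira-null cells are 1 clone, the genotype cannot be told apart from other features of that clone. The recovered depth was 6897009 to 11088835 fragments per library. Hira itself read 27.3 and 28.5 FPKM in WT and 12.4 and 11.4 FPKM in Hira-null at day 0 (log2 difference -1.17, adjusted p = 8.48e-05). At day 15 it read 15.8 and 15.5 FPKM in WT and 16.7 and 19.8 FPKM in the libraries labelled Hira-null (log2 difference 0.20, adjusted p = 0.167). The Hira level at day 15 therefore went against the label, and whether the gene-level value covers the mutated part of the gene is not stated in the study's methods or the labels. These day 15 libraries are called the libraries labelled Hira-null where their values are given. Every direction given for day 15, or over time in Hira-null, rests on that label. This holds also where Hira-null alone is written.

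The culture labels were set against marker genes. The 8 pluripotent stem cell markers summed to 3441 and 3265 FPKM in WT and to 4946 and 4962 FPKM in Hira-null at day 0. At day 15 they summed to 517 and 494 FPKM in WT and to 686 and 675 FPKM in the libraries labelled Hira-null. None of these markers read 0 in any library. At day 0 Dppa5a, the highest of them, read 1032 FPKM in WT and 2355 FPKM in Hira-null as group means. Zfp42 and Esrrb went the other way, at 457 and 179 FPKM and at 134 and 121 FPKM. The 9 cardiomyocyte markers summed to 198 and 194 FPKM in WT at day 15. In the libraries labelled Hira-null they summed to 120 and 130 FPKM, again with none at 0. By the test described below, 4 were called lower and none higher, against 18.8% and 18.6% of all tested genes. As group means, Myl7 read 66.9 FPKM in WT and 12.1 FPKM in the labelled libraries. Tnnt2 and Nkx2-5 read higher without a call, at 39.9 and 58.8 FPKM and at 1.82 and 2.27 FPKM. At that day, however, the 6 mesenchyme markers summed to 2072 and 1841 FPKM in WT and to 613 and 809 FPKM in the libraries labelled Hira-null. Of these, Twist1 alone read higher in the labelled libraries, at 32.5 FPKM against 23.6 FPKM in WT. The day 15 libraries, titled cardiomyocytes, therefore also held the RNA of other cell types. In such bulk cultures, fewer cells of a type and less RNA per cell cannot be told apart.

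FGFs are secreted proteins that bind heparan sulphate and tyrosine kinase receptors, and the receptors pass the signal through adaptor proteins and Ras to the kinase ERK. ERK in turn switches on its own brakes, the Sprouty proteins and the phosphatase DUSP6, together with the transcription factors ETV4 and ETV5. In mESCs, FGF4 produced by the cells themselves is known to prime them for differentiation, and later FGFs pattern the mesoderm, the heart field and the neural tube. Fgf11, Fgf12, Fgf13 and Fgf14 encode FGF homologous factors, which stay inside the cell, act on sodium channels and are not ligands in the usual sense.

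Fgf4 is known for an enhancer in its own last exon, where the factors SOX2 and POU5F1 bind next to each other. The element was sought because Fgf4 held the highest level of all 32 genes at day 0 and moved with both genotype and day. The letters CTTTGTT, 3 bases and ATGCTAAT occurred 1 time in the gene, in the 3′ UTR, with the first printed base 1447 bases after the stop codon (NCBIM37, chr7:152050293-152050322, plus strand). They occurred 18 times in the whole genome on both strands, and 1 of these lay within an exon. The capitals mark the SOX and then the OCT letters.
Fgf4 SOX-OCT element: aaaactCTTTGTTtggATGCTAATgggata
Sox2 read 213 and Pou5f1 621 FPKM in WT at day 0 as group means, against 226 and 908 FPKM in Hira-null. At day 15 they read 71.6 and 82.0 FPKM in WT and 105 and 144 FPKM in the libraries labelled Hira-null. The letters are a description, and no binding was measured here.

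Values are compared as log2 differences, meaning differences between group means of log2(FPKM + 1), a scale on which changes at low FPKM come out too small. A gene is called higher or lower where limma's moderated test gave an adjusted p of 0.05 or less over all 14337 genes tested. With 2 libraries a group, genotypes can fail to overlap without a true difference, so a lack of overlap is given as description only. How many of all genes lacked overlap was not computed. At day 0, 7 of the 22 tested FGF genes were called higher and 7 lower in Hira-null, with a median log2 difference of 0.10. Over all tested genes the fit called 20.8% higher and 19.4% lower, with a median of 0.01. At day 15, 5 were called higher and 3 lower in the libraries labelled Hira-null (median -0.03), against 18.6% and 18.8% of all tested genes. From day 0 to day 15, 11 rose and 7 fell in WT, where 36.1% of all tested genes rose and 33.4% fell. In Hira-null, 10 rose and 9 fell, against 37.5% and 36.4% of all. Where the day 0 genotype difference was subtracted from that at day 15, 5 FGF genes had a higher and 5 a lower difference at day 15, against 17.5% and 17.7% of all tested genes.

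**Figure D1:**
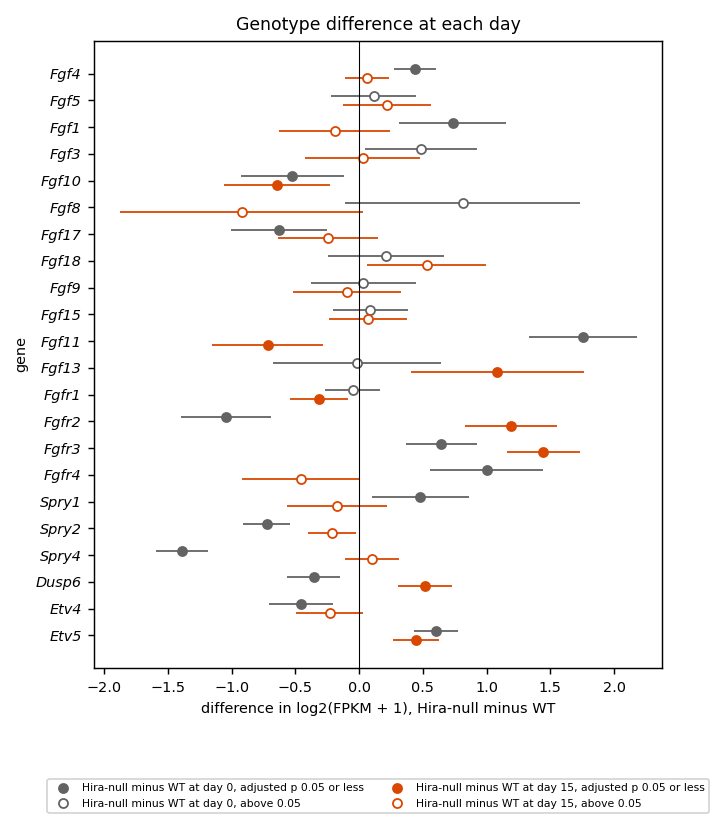
Difference in log2(FPKM + 1) between Hira-null and WT for the 22 tested FGF genes, in grey at day 0 and in orange at day 15 (libraries labelled Hira-null). Horizontal lines are 95% confidence intervals of the fit and filled points have an adjusted p of 0.05 or less. Fgfr2 lies at -1.05 at day 0 and at 1.19 at day 15, Fgf11 at 1.75 and at -0.72, and Fgfr3 and Etv5 lie above 0 at both days.

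Fgf4, the ligand of the stem cell state, dominated ligand RNA at day 0 and was higher in Hira-null cells. It read 116 and 114 FPKM in WT (115 ± 1.67, SD, n = 2) and 155 and 156 FPKM in Hira-null (156 ± 0.709). The replicates of a genotype lay close together and the genotypes did not overlap (log2 difference 0.44, SE 0.07, adjusted p = 0.00185). Of the 8 pluripotent stem cell markers, 5 were called higher and 1 lower in Hira-null at day 0, against 20.8% and 19.4% of all tested genes. Their part in the Fgf4 result was not tested. At day 15, Fgf4 read 9.70 and 10.5 FPKM in WT and 10.3 and 10.9 FPKM in the libraries labelled Hira-null, where the ranges overlapped (log2 difference 0.06, adjusted p = 0.539, 95% interval -0.11 to 0.24). Fgf4 fell over time by 3.38 on the log2 scale in WT (adjusted p = 1.54e-08) and by 3.76 in Hira-null (adjusted p = 5.03e-09). The genotype effect at day 15 minus that at day 0 was -0.37 (adjusted p = 0.0249), a call that was lost without any one of 5 libraries (adjusted p = 0.0514 and 0.0660 without WT day 0 replicates 1 and 2, 0.0816 and 0.0856 without Hira-null day 0 replicates 1 and 2, and 0.0779 without WT day 15 replicate 2).

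The place of Fgf4 in the ligand pool changed with it. Summed over the 18 secreted ligands, ligand RNA was 147 and 145 FPKM in WT and 182 and 186 FPKM in Hira-null at day 0, of which Fgf4 made up 79.0% and 78.4% in WT and 85.2% and 84.1% in Hira-null. At day 15 the sum was 46.2 and 45.9 FPKM in WT and 43.8 and 40.5 FPKM in the libraries labelled Hira-null, with Fgf4 at 21.0% and 22.8%, and at 23.5% and 26.9%. Without Fgf4, the sum of the other ligands was 30.9 and 31.2 FPKM in WT and 26.9 and 29.5 FPKM in Hira-null at day 0, and 36.5 and 35.4 FPKM in WT and 33.5 and 29.7 FPKM in the labelled libraries at day 15. The lower ligand sum at day 15, and the higher one in Hira-null at day 0, were thus those of Fgf4, and the sum of the others was not lower at day 15 in either genotype. Along chromosome 7, Fgf4 (NCBIM37, chr7:152047291-152051148) lies between Fgf3 (chr7:152023988-152030341) and Fgf15 (chr7:152082437-152086858), all on the plus strand. Fgf15, whose protein signals over a distance, in the adult from gut to liver, went the other way over time: 6.92 and 6.81 FPKM in WT at day 0 and 11.3 and 9.16 FPKM at day 15 (log2 difference 0.51, adjusted p = 0.00778). In Hira-null it read 7.73 and 6.99 FPKM at day 0 and, in the labelled libraries, 11.4 and 10.1 FPKM at day 15 (log2 difference 0.49, adjusted p = 0.00875). The genotype ranges of Fgf15 did not overlap at day 0 and overlapped at day 15, with log2 differences of 0.09 (adjusted p = 0.642) and 0.07 (adjusted p = 0.730). Its rise was no longer called in WT without WT day 15 replicate 1 (log2 difference 0.37, adjusted p = 0.0869), and in Hira-null without Hira-null day 0 replicate 2 (0.42, adjusted p = 0.0582) or day 15 replicate 1 (0.40, adjusted p = 0.0582). An RNA gene on the other strand, Gm17685, shares exonic bases with Fgf15, and whether strand entered the counting is not stated in the study's methods or the labels.

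Fgf3, an FGF7 subfamily ligand of the early ear and hindbrain, stayed low. It read 1.48 and 2.48 FPKM in WT and 2.80 and 3.43 FPKM in Hira-null at day 0 (log2 difference 0.48, adjusted p = 0.0768), and 0.978 and 0.858 FPKM in WT and 0.940 and 0.968 FPKM in the libraries labelled Hira-null at day 15. It fell over time by 1.07 on the log2 scale in Hira-null (adjusted p = 9.43e-04) and by 0.62 in WT (adjusted p = 0.0199). The fall in WT was not called without WT day 0 replicate 2 (log2 difference -0.37, adjusted p = 0.127) and without WT day 15 replicates 1 and 2 (adjusted p = 0.0778 and 0.117). The day 0 genotype difference, in contrast, was called without WT day 0 replicate 2 (0.73, adjusted p = 0.0207).

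Fgf5, a marker of the epiblast that forms after the naive state, was near the floor at day 0 and rose in both genotypes. It held 5 and 3 fragments in WT and 5 and 7 in Hira-null at day 0, or 0.271 and 0.142 FPKM and 0.291 and 0.318 FPKM. By day 15 it read 5.93 and 6.37 FPKM in WT and 7.08 and 7.59 FPKM in the libraries labelled Hira-null, or 140 and 187 and 158 and 181 fragments. The 24-fold rise in fragments per depth in Hira-null (95% exact interval for counting error alone 13.6 to 46.9) and the 30.6-fold rise in WT (15.3 to 71.4) had overlapping intervals. Both rises were called (log2 difference 2.57, adjusted p = 1.09e-06 in WT, and 2.68, adjusted p = 5.49e-07 in Hira-null). Although the day 15 genotypes did not overlap, their log2 difference of 0.22 was not called (adjusted p = 0.285, 95% interval -0.12 to 0.57).

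The FGF8 subfamily, Fgf8, Fgf17 and Fgf18, signals in the primitive streak, the heart field and the midbrain-hindbrain border. Fgf17 was the second ligand of WT cells at day 0 and was lower in Hira-null. It read 15.8 and 14.7 FPKM in WT and 8.80 and 10.3 FPKM in Hira-null, with no overlap (log2 difference -0.63, SE 0.17, adjusted p = 0.0160). Without WT day 0 replicate 1 the adjusted p was 0.0610, without Hira-null day 0 replicate 1 it was 0.116, and with a pseudocount of 0.1 or on fragments scaled by depth alone it was 0.0776 or 0.110. At day 15 Fgf17 was down to 1.45 and 1.06 FPKM in WT and to 1.13 and 0.685 FPKM in the libraries labelled Hira-null, a fall of 2.85 on the log2 scale in WT (adjusted p = 1.24e-06) and 2.47 in Hira-null (adjusted p = 1.87e-06). The day 15 genotype difference was -0.25 (adjusted p = 0.296).

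Fgf8 came up as Fgf17 went down. It held 1 fragment in each WT library at day 0 and 85 and 103 at day 15 (6.84 and 6.66 FPKM), a ratio of 70.3 in fragments per depth with a counting interval of 19.2 to 585. Both WT libraries rose (log2 difference 2.82, adjusted p = 2.72e-04). In Hira-null at day 0 the replicates disagreed, with 1 fragment (0.110 FPKM) in replicate 1 and 27 fragments (2.33 FPKM) in replicate 2. The libraries labelled Hira-null at day 15 read 3.15 and 3.03 FPKM, below both WT libraries. The fit over all libraries gave log2 differences of 0.81 at day 0 (adjusted p = 0.147) and -0.92 at day 15 (adjusted p = 0.117). Leaving out Hira-null day 0 replicate 1 or replicate 2, the day 15 difference was called, at the same size (adjusted p = 0.00257 and 0.00286), and leaving out replicate 1 the day 0 difference was 1.6 (adjusted p = 0.00157). The rise in Hira-null (1.09, adjusted p = 0.0382) was not called without replicate 1 of day 0 (0.30, adjusted p = 0.188) and was 1.88 without replicate 2 (adjusted p = 7.44e-05). It was also lost without each of the other 6 libraries, at adjusted p = 0.0536 and 0.0537 without WT day 0 replicates 1 and 2, 0.0929 without either WT day 15 replicate, and 0.106 and 0.0947 without the day 15 replicates 1 and 2 labelled Hira-null. The genotype effects of Fgf8 at the 2 days differed by -1.73 (adjusted p = 0.0469), which was lost without each library except Hira-null day 0 replicates 1 and 2 (adjusted p = 0.0907 to 0.178), and was -0.94 without replicate 2.

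Fgf18 was low in all groups, at 1.54 and 1.57 FPKM in WT and 2.30 and 1.65 FPKM in Hira-null at day 0, and at 1.81 and 1.56 FPKM in WT and 3.61 and 2.25 FPKM in the libraries labelled Hira-null at day 15. Its genotype ranges did not overlap at either day, but neither log2 difference was called (0.21, adjusted p = 0.445, and 0.53, adjusted p = 0.0730). Without the day 15 replicate 2 labelled Hira-null, the day 15 difference was 0.78 (adjusted p = 0.0241) and the change over time in Hira-null was 0.64 (adjusted p = 0.0244), against 0.39 (adjusted p = 0.111) with all libraries.

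**Figure D2:**
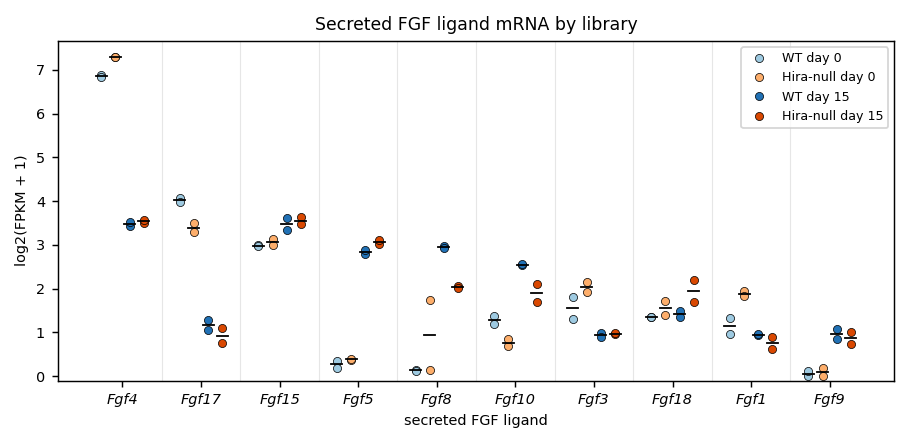
Expression of the 10 tested secreted ligands as log2(FPKM + 1), with 1 point per library, short lines for the mean of the 2 libraries of a group, and groups by colour. Fgf4 lies highest at day 0, Fgf17 falls and Fgf5, Fgf8 and Fgf10 rise by day 15. The 2 Hira-null libraries at day 0 lie apart for Fgf8, at 0.110 and 2.33 FPKM.

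Fgf10, the mesenchymal ligand of the second heart field and of lung and limb buds, was lower in Hira-null at both days. At day 0 it read 1.6 and 1.29 FPKM in WT and 0.605 and 0.797 FPKM in Hira-null (log2 difference -0.53, SE 0.18, adjusted p = 0.0425). On day 15 it read 4.81 and 4.89 FPKM in WT and 3.29 and 2.25 FPKM in the libraries labelled Hira-null (log2 difference -0.65, SE 0.18, adjusted p = 0.0228). Both libraries of a genotype lay apart from both of the other at each day, and Fgf10 rose over time in WT (1.26, adjusted p = 2.40e-04) and in Hira-null (1.14, adjusted p = 3.85e-04). Both genotype calls depended on single libraries. At day 0 the call was lost without either WT day 0 replicate (adjusted p = 0.147 and 0.0516 for replicates 1 and 2), either Hira-null day 0 replicate (0.200 and 0.0916), either WT day 15 replicate (0.0551) or with no filter (0.0650). The day 15 call was lost without WT day 15 replicate 1 (adjusted p = 0.122) or 2 (0.133), without the labelled replicate 2 (0.111), or with a pseudocount of 0.1 (0.0531). At that day the mesenchyme markers, 4 of 6 of which were called lower and none higher, moved the same way, and their part in the result was not tested. A transcript on the other strand, Gm16263, shares exonic bases with Fgf10.

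Fgf1, a ligand that binds all FGF receptors and lacks a classical secretion signal, was higher in Hira-null at day 0, at 2.83 and 2.53 FPKM against 1.53 and 0.939 FPKM in WT (log2 difference 0.73, SE 0.19, adjusted p = 0.0130). At day 15 it read 0.923 and 0.939 FPKM in WT and 0.861 and 0.538 FPKM in the libraries labelled Hira-null (log2 difference -0.19, adjusted p = 0.467). The genotypes did not overlap at either day, in opposite directions. Fgf1 fell over time in Hira-null (by 1.12 on the log2 scale, adjusted p = 5.57e-04), while in WT the difference was -0.20 (adjusted p = 0.371). The genotype effects differed between days by -0.92 (adjusted p = 0.0268). The day 0 call was lost without WT replicate 2 of that day (0.54, adjusted p = 0.0663) and without Hira-null replicates 1 and 2 (adjusted p = 0.0838 and 0.0503). The call between days was lost without each of 6 libraries, all but WT day 0 replicate 1 and the day 15 replicate 1 labelled Hira-null (adjusted p = 0.0555 to 0.0886), and with a pseudocount of 0.1 (adjusted p = 0.0518). Fgf9, a ligand of epithelia and the epicardium, rose from 0 and 3 fragments to 43 and 39 in WT (0.90, adjusted p = 0.00194) and from 0 and 5 to 37 and 26 in Hira-null (0.77, adjusted p = 0.00412), with log2 differences between genotypes of 0.03 at day 0 (adjusted p = 0.917) and -0.10 at day 15 (adjusted p = 0.719). In fragments per depth these were ratios of 20.4 in WT (counting interval 6.75 to 101) and 10.7 in Hira-null (4.35 to 34.1).

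Of the intracellular FGF homologous factors, Fgf11 changed most. At day 0 it read 0.727 and 1.18 FPKM in WT and 6.28 and 4.87 FPKM in Hira-null (log2 difference 1.75, SE 0.19, adjusted p = 1.95e-04). By day 15 the order had turned, with 3.65 and 3.16 FPKM in WT and 1.89 and 1.48 FPKM in the libraries labelled Hira-null (log2 difference -0.72, SE 0.19, adjusted p = 0.0180). The groups did not overlap at either day. Fgf11 rose over time in WT (1.18, adjusted p = 4.66e-04) and fell in Hira-null (by 1.29 on the log2 scale, adjusted p = 2.34e-04), and the genotype effects differed by -2.47 (adjusted p = 4.34e-04). The day 0 and between-day calls held without each library in turn. The day 15 call was lost without WT day 15 replicate 1 (adjusted p = 0.157) or 2 (0.0918) or the labelled replicate 2 (0.0790).

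Fgf13, a factor of neurons and heart muscle, read 2.25 and 3.28 FPKM in WT and 1.81 and 3.84 FPKM in Hira-null at day 0, with overlapping ranges (log2 difference -0.02, adjusted p = 0.984). By day 15 it read 1.62 and 1.47 FPKM in WT and 5.68 and 3.35 FPKM in the libraries labelled Hira-null, higher by 1.08 (SE 0.30, adjusted p = 0.0207). That call was lost without WT day 15 replicate 1 (adjusted p = 0.136) or 2 (0.163), without the labelled replicate 1 (0.105), and with no filter (0.0516). Over time the log2 difference was -0.55 in WT (adjusted p = 0.124) and 0.55 in Hira-null (adjusted p = 0.121). The genotype effects differed by 1.10 (adjusted p = 0.0696). The change in Hira-null was called without day 0 replicate 2 (0.94, adjusted p = 0.0226) or day 15 replicate 2 (0.86, adjusted p = 0.0467), and the difference between effects without the same libraries (1.49 and 1.41, adjusted p = 0.0264 and 0.0391).

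Fgf12, the member of this group that reached 1 FPKM in a single library, also stood apart by genotype at day 15. It held 15 and 24 fragments in WT (0.194 and 0.250 FPKM) and 92 and 64 in the libraries labelled Hira-null (1.26 and 0.820 FPKM), a ratio of 4.59 in fragments per depth (counting interval 3.21 to 6.70). With no filter on low values its log2 difference was 0.73 (adjusted p = 0.00511). At that day 6 of 7 neuron markers were called higher and none lower in the libraries labelled Hira-null, and the list summed to 248 and 253 FPKM against 101 and 105 FPKM in WT. At day 0 the same list summed to 204 to 237 FPKM, with Stmn2 at 146 FPKM in WT and 185 FPKM in Hira-null. Dcx and Snap25 read 0 at that day, so the sum of the list is not a measure of neurons alone. The part of neurons in the Fgf12 and Fgf13 results was not tested.

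The other 9 genes that were not tested held few fragments. Fgf14 held 0 to 3 fragments per library at day 0 and 13 to 25 at day 15. Fgf16, a heart and fat ligand, held 8 and 10 fragments in WT at day 15 and 0 and 1 in the labelled libraries, and with no filter its log2 difference was -0.33 (adjusted p = 0.0223). Fgf2, a ligand added to many stem cell media, reached 16 fragments in WT day 15 replicate 2 and 0 to 4 in the other 7 libraries. Fgf7, Fgf20, Fgf21, Fgf22 and Fgf23 held 0 to 8 fragments in each library. Fgf6 was above 0 in a single library, at 0.0693 FPKM, where the recovery always gives 1 fragment. With the filter these genes entered no test, and Fgf12 and Fgf16 were singled out after their values were seen.

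**Figure D3:**
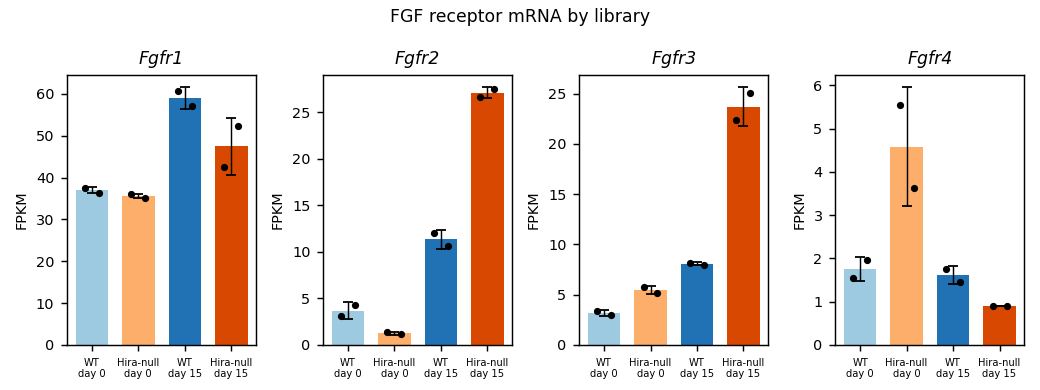
FPKM of the 4 FGF receptor genes in each library, with bars for the mean of 2 libraries, error bars for the SD and points for the libraries. The axes start at 0 and differ between panels. Fgfr2 lies lower for Hira-null at day 0 and higher in the libraries labelled Hira-null at day 15, at 26.6 and 27.5 FPKM.

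Over time 3 of 4 receptor genes were called higher and none lower in WT, against 36.1% and 33.4% of all tested genes. In Hira-null 3 were called higher and 1 lower, against 37.5% and 36.4%. Between genotypes 2 were called higher and 1 lower at each day. The shares of all tested genes were 20.8% higher and 19.4% lower at day 0, and 18.6% and 18.8% at day 15. Fgfr1, the main receptor of mESCs, read 37.5 and 36.4 FPKM in WT and 36.0 and 35.2 FPKM in Hira-null at day 0 (log2 difference -0.05, adjusted p = 0.714, 95% interval -0.27 to 0.17). On day 15 it read 60.8 and 57.1 FPKM in WT and 42.7 and 52.3 FPKM in the libraries labelled Hira-null (log2 difference -0.31, SE 0.10, adjusted p = 0.0365). Neither day showed an overlap, but the second call held in a single one of the 8 fits that left out 1 library, that without the day 15 replicate 2 labelled Hira-null. The adjusted p was 0.0515 without either WT day 0 replicate, 0.0532 and 0.0531 without Hira-null day 0 replicates 1 and 2, 0.209 and 0.112 without WT day 15 replicates 1 and 2, and 0.145 without the labelled replicate 1, where the log2 difference was -0.17. With no filter it was 0.0548. Fgfr1 rose over time in WT (0.66, adjusted p = 3.08e-04) and in Hira-null (0.40, adjusted p = 0.00517), where the rise was 0.25 without the labelled replicate 2 (adjusted p = 0.0248). Without that library the genotype effects differed by -0.40 (adjusted p = 0.0246), against -0.26 (adjusted p = 0.176) with all.

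Fgfr2, whose splice forms read FGF10 and FGF7 in epithelia, turned from lower to higher in Hira-null. At day 0 it read 3.05 and 4.30 FPKM in WT (3.67 ± 0.881, SD, n = 2) and 1.36 and 1.13 FPKM in Hira-null (1.24 ± 0.165). The log2 difference was -1.05 (SE 0.15, adjusted p = 9.65e-04). In the day 15 libraries it read 12.0 and 10.6 FPKM in WT (11.3 ± 1.0) and 26.6 and 27.5 FPKM in the libraries labelled Hira-null (27.1 ± 0.588), a log2 difference of 1.19 (SE 0.16, adjusted p = 6.80e-04). The groups did not overlap at either day, and the genotype effects differed by 2.24 (SE 0.22, adjusted p = 2.90e-04). Fgfr2 rose over time by 3.65 in Hira-null (adjusted p = 1.42e-07) and by 1.41 in WT (adjusted p = 4.98e-05). All 5 calls held without each library in turn and under the 6 other settings. The Fgfr2 model of the annotation spans chr7:137305965-140315033 (NCBIM37, minus strand) and shares exonic bases with Ctbp2 on the same strand, so fragments of the shared part could be assigned to either gene.

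Fgfr3, a receptor of neural progenitors and cartilage, was higher in Hira-null at both days. It read 3.37 and 2.93 FPKM in WT and 5.76 and 5.20 FPKM in Hira-null at day 0 (log2 difference 0.64, SE 0.12, adjusted p = 0.00341). At day 15 it read 8.16 and 7.97 FPKM in WT (8.06 ± 0.129, SD, n = 2) and 22.3 and 25.1 FPKM in the libraries labelled Hira-null (23.7 ± 1.91), a log2 difference of 1.44 (SE 0.13, adjusted p = 9.69e-05). This was the largest genotype difference at day 15 among the 22 tested genes and exceeded that at day 0 by 0.80 (SE 0.18, adjusted p = 0.00865). Fgfr3 rose over time in WT (1.13, adjusted p = 4.58e-05) and in Hira-null (1.93, adjusted p = 1.24e-06), and all 5 calls held without each library in turn. At day 15 the 8 neural progenitor markers summed to 430 FPKM in both libraries labelled Hira-null and to 175 and 170 FPKM in WT. Of these, 4 were called higher and none lower, against 18.6% and 18.8% of all tested genes. Fabp7, the highest of them in the labelled libraries, read 43.2 FPKM in WT and 199 FPKM there. Pax3 alone read lower, at 1.36 and 1.03 FPKM, so the sum leans on few genes. The part of these markers in the Fgfr2 and Fgfr3 results was not tested.

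Fgfr4, a receptor of endoderm and liver, went the other way from Fgfr2 at day 0. It read 1.55 and 1.96 FPKM in WT and 5.55 and 3.62 FPKM in Hira-null at day 0 (log2 difference 1.0, SE 0.20, adjusted p = 0.00394), with no overlap. By day 15 it read 1.75 and 1.46 FPKM in WT and 0.892 and 0.902 FPKM in the libraries labelled Hira-null (log2 difference -0.46, adjusted p = 0.108, 95% interval -0.92 to 6.44e-04). The genotype effects differed by -1.46 (SE 0.28, adjusted p = 0.00510). It fell over time in Hira-null (by 1.54 on the log2 scale, adjusted p = 1.05e-04), and in WT the difference was -0.08 (adjusted p = 0.745). The visceral endoderm markers, of which 6 of 8 were called lower at day 15 and 1 higher, summed to 126 and 124 FPKM in WT and to 28.2 and 29.6 FPKM in the libraries labelled Hira-null. Their part in the day 15 level was not tested.

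**Figure D4:**
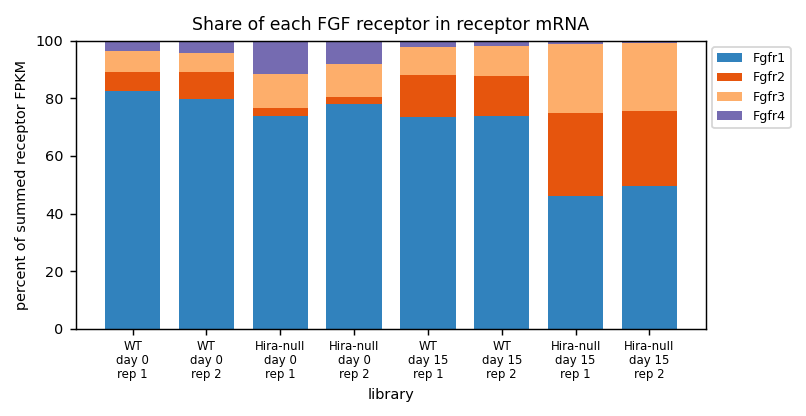
Share of each receptor gene in the summed FPKM of the 4 receptors, with 1 bar per library. Fgfr1 takes 73.5% to 82.5% in the first 6 bars and 46.1% and 49.5% in the libraries labelled Hira-null at day 15, where Fgfr2 and Fgfr3 take most of the rest.

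The receptor pool summed to 45.5 and 45.6 FPKM in WT and 48.7 and 45.2 FPKM in Hira-null at day 0, and to 82.8 and 77.2 FPKM in WT and 92.5 and 106 FPKM in the libraries labelled Hira-null at day 15. Within it, Fgfr1 held 82.5% and 79.9% in WT and 74.0% and 78.0% in Hira-null at day 0. At day 15 Fgfr1 held 73.5% and 74.0% in WT and 46.1% and 49.5% in the labelled libraries. Fgfr2 held 14.5% and 13.8% in WT and 28.8% and 26.0% in the labelled libraries at that day, and Fgfr3 held 9.86% and 10.3% and then 24.2% and 23.7%. FPKM is per length, so these shares compare levels between genes, and they are given without a test since they restate the 4 values. They rest on the gene models used for counting, which are not stated in the study's methods or the labels. In the annotation used here Fgfr1 has 2 models, and the Fgfr2 model shares exonic bases with Ctbp2.

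Of the receptor and feedback genes, Fgfr2, Fgfr3, Dusp6 and Etv5 were called higher in the libraries labelled Hira-null at day 15, and the starts of 3 of them are shown for that call alone. At day 0 Fgfr2 and Dusp6 were called lower and Fgfr3 and Etv5 higher. The window for Etv5 is not shown, since 149 of its 150 bases lie in an exon of the gene's own NCBIM37 model. Each sequence is the 150 bases before a RefSeq start, the most upstream of 2 for Fgfr3 and the single one listed for Fgfr2 and Dusp6 (RefSeq table on GRCm38.p6, whose letters were found without change in NCBIM37, the build of the coordinates). Capitals mark a GC box (GGGCGG on either strand) or an ETS motif (CGGAAG on either strand). Of 32851 promoter windows of the same length, 28.6% held the first and 10.4% the second. ETS factors such as ETV4 and ETV5 bind sites around the shorter core GGAA, which was not searched. A window without the motif can thus still hold that core.
Fgfr2 (NCBIM37, chr7:137410323-137410472, minus strand): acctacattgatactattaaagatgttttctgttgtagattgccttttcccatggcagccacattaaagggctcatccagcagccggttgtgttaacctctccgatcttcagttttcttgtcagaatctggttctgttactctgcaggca
Fgfr3 (NCBIM37, chr5:34064223-34064372, plus strand): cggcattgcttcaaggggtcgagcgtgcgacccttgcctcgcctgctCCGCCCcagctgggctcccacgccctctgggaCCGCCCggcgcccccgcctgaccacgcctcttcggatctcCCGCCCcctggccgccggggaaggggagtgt
Dusp6 (NCBIM37, chr10:98725715-98725864, plus strand): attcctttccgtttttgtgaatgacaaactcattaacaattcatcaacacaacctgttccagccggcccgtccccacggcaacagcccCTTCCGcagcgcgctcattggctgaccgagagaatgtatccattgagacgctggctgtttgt
Fgfr2 held neither motif, with 43.3% G and C and 2 CpG pairs. Its window lies within the long Fgfr2 model of NCBIM37 but in none of its exons. Fgfr3 held 3 GC boxes and Dusp6 held 1 ETS motif. The 3 windows thus shared no searched motif, and a match is a run of letters, not a measured site.

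**Figure D5:**
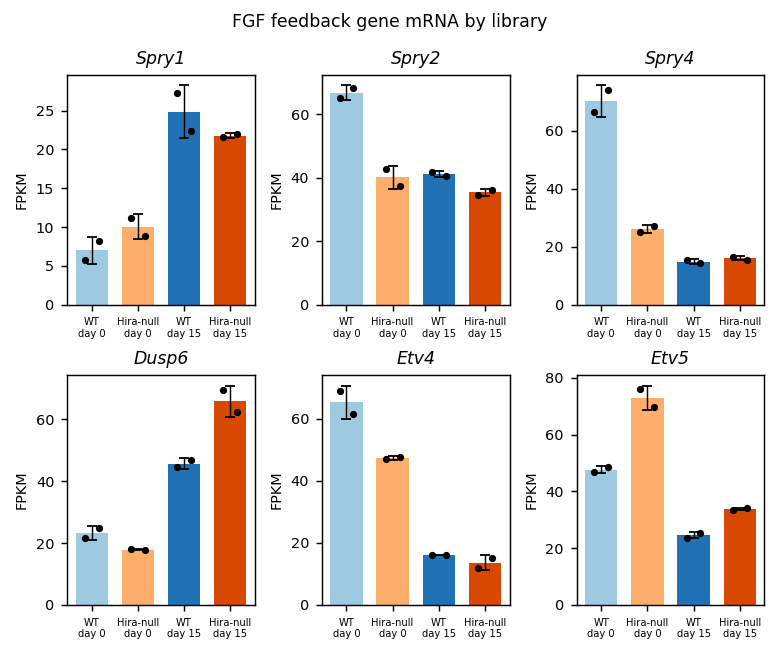
FPKM of the 6 FGF feedback genes in each library, with bars for the mean of 2 libraries, error bars for the SD and points for the libraries. The axes start at 0 and differ between panels. At day 0, Spry2, Spry4, Dusp6 and Etv4 are lower and Spry1 and Etv5 higher in Hira-null, and at day 15 Dusp6 and Etv5 are higher in the libraries labelled Hira-null.

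All 6 feedback genes were called at day 0, 2 higher and 4 lower, against 20.8% and 19.4% of all tested genes. The calls of Spry1, Dusp6 and Etv4 depended on single libraries, as given below. Spry4, an inhibitor of receptor signalling to Ras, differed most and was lower in Hira-null. It read 66.4 and 74.0 FPKM in WT (70.2 ± 5.39, SD, n = 2) and 25.2 and 27.0 FPKM in Hira-null (26.1 ± 1.30). The log2 difference was -1.39 (SE 0.09, adjusted p = 2.48e-05), and no libraries of the 2 groups overlapped. At day 15 the ranges nearly met, with 15.4 and 14.3 FPKM in WT and 16.4 and 15.5 FPKM in the libraries labelled Hira-null (log2 difference 0.10, adjusted p = 0.436, 95% interval -0.11 to 0.31). The genotype effects differed by 1.49 (SE 0.13, adjusted p = 1.76e-04). Spry4 fell over time by 2.17 on the log2 scale in WT (adjusted p = 2.31e-07) and by 0.68 in Hira-null (adjusted p = 1.49e-04).

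Spry2, a second Sprouty inhibitor, read 65.2 and 68.4 FPKM in WT and 42.6 and 37.5 FPKM in Hira-null at day 0 (log2 difference -0.73, SE 0.08, adjusted p = 2.59e-04). On day 15 it read 41.7 and 40.5 FPKM in WT and 34.6 and 36.1 FPKM in the libraries labelled Hira-null (log2 difference -0.21, adjusted p = 0.0768). The genotypes did not overlap at either day. Spry2 fell over time in WT (by 0.69 on the log2 scale, adjusted p = 8.16e-05), and in Hira-null the difference was -0.17 (adjusted p = 0.0844) and was called without day 0 replicate 2 (-0.26, adjusted p = 0.0421). The genotype effects differed by 0.51 (adjusted p = 0.0103), which was lost without WT day 15 replicate 2 (0.49, adjusted p = 0.0509).

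Spry1, the third Sprouty gene, went the other way at day 0. It read 5.78 and 8.17 FPKM in WT and 11.2 and 8.90 FPKM in Hira-null (log2 difference 0.48, SE 0.17, adjusted p = 0.0476), a difference close to the spread of the replicates. The call was kept in 1 of the 8 fits without a library, that without WT day 0 replicate 2. Leaving out WT day 0 replicate 1 gave a log2 difference of 0.26 (adjusted p = 0.247). The adjusted p was 0.272 and 0.0529 without Hira-null day 0 replicates 1 and 2, 0.0688 and 0.0681 without WT day 15 replicates 1 and 2, and 0.0746 and 0.0747 without the day 15 replicates labelled Hira-null. It was lost as well with a pseudocount of 0.1 (0.0522), no filter (0.0811) and median-ratio scaling (0.0534). Spry1 rose over time to 27.2 and 22.4 FPKM in WT (1.71, adjusted p = 2.51e-05) and to 21.6 and 22.0 FPKM in the libraries labelled Hira-null (1.05, adjusted p = 4.38e-04), with no call between genotypes at day 15 (-0.18, adjusted p = 0.458). The genotype effects differed by -0.66 (adjusted p = 0.0624), and by -0.87 without WT day 0 replicate 2 (adjusted p = 0.0202).

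Dusp6, the phosphatase that takes the activating phosphates off ERK, was lower in Hira-null at day 0 and higher at day 15. At day 0 it read 21.7 and 24.8 FPKM in WT and 18.1 and 17.7 FPKM in Hira-null (log2 difference -0.36, SE 0.09, adjusted p = 0.0133). That call was lost without WT replicate 2 of day 0 (-0.27, adjusted p = 0.0725) and without the Hira-null replicates 1 and 2 of day 0 (0.0646 and 0.0790). In the day 15 libraries it read 44.6 and 46.9 FPKM in WT (45.7 ± 1.63, SD, n = 2) and 69.4 and 62.2 FPKM in the libraries labelled Hira-null (65.8 ± 5.05), a log2 difference of 0.51 (SE 0.09, adjusted p = 0.00318) that held without each library in turn. Neither day showed an overlap, and the genotype effects differed by 0.87 (SE 0.13, adjusted p = 0.00166). Dusp6 rose over time in WT (0.95, adjusted p = 2.27e-05) and in Hira-null (1.82, adjusted p = 3.33e-07).

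The related transcription factors Etv4 and Etv5 moved apart. At day 0 Etv4 read 69.0 and 61.6 FPKM in WT and 46.9 and 47.6 FPKM in Hira-null, a log2 difference of -0.46 (SE 0.11, adjusted p = 0.0107). Etv5 read 46.7 and 48.6 FPKM in WT and 75.9 and 69.8 FPKM in Hira-null, a log2 difference of 0.60 (SE 0.08, adjusted p = 4.58e-04). The order of the pair was thus turned: the ratio of Etv5 to Etv4 was 0.676 and 0.789 in WT and 1.62 and 1.47 in Hira-null. At day 15 Etv5 read 23.7 and 25.2 FPKM in WT and 33.4 and 34.0 FPKM in the libraries labelled Hira-null (log2 difference 0.45, SE 0.08, adjusted p = 0.00258), and Etv4 read 16.2 and 16.0 FPKM in WT and 12.0 and 15.2 FPKM in the labelled libraries (log2 difference -0.23, adjusted p = 0.142). The ratio was 1.47 and 1.58 in WT and 2.78 and 2.23 in the labelled libraries at that day. Both genes fell over time in both genotypes, Etv4 by 1.95 and 1.73 on the log2 scale in WT and Hira-null (adjusted p = 1.04e-06 and 1.34e-06) and Etv5 by 0.93 and 1.09 (adjusted p = 7.96e-06 and 2.26e-06). The genotype effects at the 2 days differed by 0.22 for Etv4 (adjusted p = 0.304) and by -0.16 for Etv5 (adjusted p = 0.297). The Etv5 calls held without each library in turn. The Etv4 call at day 0 was lost without WT replicate 1 of that day (-0.37, adjusted p = 0.0587) and without Hira-null replicates 1 and 2 (0.0715 and 0.0598), and Etv4 was called at day 15 without the labelled replicate 2 (-0.39, adjusted p = 0.0185).

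Outside the FGF genes themselves, a list of other ERK pathway inhibitors and ERK-responsive genes was mostly lower in Hira-null at day 0: of 18 tested, 11 were called lower and 1 higher, against 19.4% lower and 20.8% higher of all tested genes, with a median of -0.42 against 0.01. The list joins genes that ERK switches on with inhibitors of the pathway, so its count is not one of ERK targets alone. Like all lists here, it was chosen with earlier results of these data known, so the contrast with all genes is a description. Myc, a driver of growth, read 21.9 FPKM in WT and 3.74 FPKM in Hira-null (-2.27, adjusted p = 1.73e-05). Ccnd1, the cyclin of early cell cycle entry, read 45.5 and 24.9 FPKM (-0.85, adjusted p = 1.35e-04), and the inhibitor Spred1 14.8 and 7.76 FPKM (-0.85, adjusted p = 5.98e-04). Fos, an immediate early gene, was the exception, at 3.72 FPKM in WT and 33.2 FPKM in Hira-null (2.88, adjusted p = 1.40e-05). At day 15, 3 of the 18 were called higher and 4 lower, close to the 18.6% and 18.8% of all tested genes. Phosphorylated ERK was not measured in these data. At day 0 the parietal endoderm markers, another cell type that mESC cultures can hold, summed to 1340 and 1288 FPKM in WT and 217 and 212 FPKM in Hira-null, with 5 of 6 called lower and none higher, and their part in the day 0 results was not tested.

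The adaptors and kinases between receptor and ERK were called at day 0 about as often as other genes, with 4 of 19 higher and 5 lower against 20.8% and 19.4% of all tested genes and a median of 0.01 in both. Shc1 (1.07, adjusted p = 3.61e-05), Frs3 (1.39, adjusted p = 1.29e-04) and Plcg1 (0.68, adjusted p = 5.77e-04) were higher and the docking protein gene Gab1 (-0.98, adjusted p = 2.56e-05), Ptpn11 (-0.61, adjusted p = 4.10e-04) and Grb2 (-0.54, adjusted p = 4.84e-04) were lower. Gab1 read 150 FPKM in WT and 75.6 FPKM in Hira-null. At day 15, 2 of 19 were called higher and 2 lower, against 18.6% and 18.8% of all.

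Co-receptors and matrix genes that hold or trim heparan sulphate chains, through which FGFs reach their receptors, formed the pathway list with the most calls at day 15. Of 21 tested, 17 were called higher and 1 lower in the libraries labelled Hira-null, against 18.6% and 18.8% of all tested genes, with a median of 0.59 against 0.01. This list too was chosen with earlier results of these data known, so the contrast is a description. Sulf1, which takes sulphate groups off these chains, read 63.4 FPKM in WT (± 1.68, SD, n = 2) and 211 FPKM in the labelled libraries (± 0.619; log2 difference 1.72, adjusted p = 7.58e-06). Its relative Sulf2 read 83.0 and 167 FPKM (1.0, adjusted p = 5.57e-05), and the proteoglycan gene Gpc4 read 48.9 and 92.0 FPKM (0.90, adjusted p = 1.36e-04). Klb, the co-receptor of the endocrine FGFs, was lower, at 1.09 and 0.143 FPKM (-0.87, adjusted p = 0.00754). At that day 6 of 7 neuron markers and 4 of 8 neural progenitor markers were also called higher, and 4 of 6 mesenchyme markers lower, with the sums given above, and their part in this result was not tested. At day 0 the list was split, with 9 higher and 6 lower against 20.8% and 19.4% of all tested genes. The proteoglycan genes Gpc3 (0.63, adjusted p = 2.78e-04) and Gpc1 (0.57, adjusted p = 0.00750) and the FGF-binding protein gene Fgfbp3 (0.61, adjusted p = 0.0136) were then higher. Sulf1 was lower, at 17.7 FPKM in WT and 10.2 FPKM in Hira-null (-0.74, adjusted p = 1.59e-04), and Flrt3, an FGF receptor partner, was lower, at 6.002 FPKM in WT and 0.451 FPKM in Hira-null (-2.29, adjusted p = 3.55e-05), as was Klb (-0.90, adjusted p = 0.00503).

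The midbrain-hindbrain organizer, the embryonic tissue where FGF8 acts, was looked at because FGF8 subfamily ligands were expressed. Of 9 tested genes, 4 were called higher and 1 lower at day 15, against 18.6% and 18.8% of all tested genes. The neural markers were higher at that day as well (6 of 7 neuron and 4 of 8 neural progenitor markers called, none lower), and their part in these differences was not tested. Lmx1b read 4.91 FPKM in WT and 26.4 FPKM in the libraries labelled Hira-null (2.19, adjusted p = 1.36e-04), En2 read 1.83 and 10.7 FPKM (2.05, adjusted p = 3.76e-05) and Otx2 read 16.4 and 30.9 FPKM (0.87, adjusted p = 8.03e-04). Wnt1 was lower, at 3.54 and 1.01 FPKM (-1.15, adjusted p = 0.00325). Of the 4 tested genes without a call, Pax8, Sp8 and Gbx2 read lower and Cnpy1 higher. Pax2 and Pax5 did not pass the filter on low values. They read 1.12 and 0.618 FPKM in WT, and 0.342 and 0.183 FPKM in the labelled libraries. Fgf8 itself, whose day 15 difference was not called, read 6.84 and 6.66 FPKM in WT and 3.15 and 3.03 FPKM in the labelled libraries. At day 0, Gbx2 (-1.83, adjusted p = 8.41e-05) and En2 (-0.93, adjusted p = 9.15e-04) were lower in Hira-null and no gene of the list was called higher, against 19.4% lower and 20.8% higher of all tested genes.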

How the data were processed

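RNA was extracted with TRIzol from 2 biological samples of each of 4 groups and made into libraries with a stranded mRNA kit. Per the labels and the study's methods, reads were aligned to mm9 with Bowtie 0.12.2. The authors deposited FPKM values for 24421 genes in 8 libraries. Whether strand entered the counting is not stated in the study's methods or the labels. Another table per day, made with DESeq2 1.6.3 by the authors, holds their own comparison (means, fold changes and p-values) and was not used.

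The fragments behind each value were recovered as the smallest whole numbers that fit the FPKM steps within a library. Within 0.1 of a fragment, 100% of positive values came out whole, giving 6897009 to 11088835 fragments per library (median 8764772). The numbers were chosen to be whole, so this share is a weak check of them. Where the fragments of a gene share a factor, its numbers come out too low. Intervals on fragments cover counting error only. The FPKM table lists 5287 genes at 0 in all libraries and 27 symbols turned into dates.

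The fit took 14337 genes that reached 1 FPKM in at least 2 libraries, as log2(FPKM + 1) with limma 3.58.1 in R 4.3.3, with 4 group means, a weight per day (1.03 and 0.968), an empirical Bayes trend (4 residual and 4.70 prior degrees of freedom) and Benjamini-Hochberg adjustment over all tested genes. The script was tested on simulated data for the day 0 comparison (14337 genes). There, 77.1% of genes raised 2-fold and 84.0% of genes lowered to 0.5-fold were recovered, and 10 unchanged genes were called. The simulation changed few genes, all with a mean of 1 FPKM or more, and gave all genes the same set spread. Apart from the changed genes its groups were equal, unlike the data. These rates therefore check the script and do not give the power for the genes described here. Alternatives were a pseudocount of 0.1, no filter, median-ratio scaling, no weights, fragments scaled by depth alone, a replicate block and leaving out each library.

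Every member of the FGF list was described, and of the other lists up to 3 called genes in each direction, by adjusted p. The members and lists were chosen with earlier results of these data known. All 167 listed genes matched the table. Gene positions come from NCBIM37, where 31 of 32 members were placed (Fgfr1 has 2 models) and 5 share exonic bases with another gene. The RefSeq promoter table (GRCm38.p6) held 23 members.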

Additional observations from a re-analysis of the deposited data

Results flagged for a closer look

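For 10 of the 22 tested genes, the difference between Hira-null and WT at day 15 was not the same as that at day 0 by the test of the difference between the days (limma, adjusted p of 0.05 or less, all 8 libraries). Of these, 5 had a higher and 5 a lower difference at day 15, against 17.5% and 17.7% of all tested genes. Each value is the log2 genotype effect at day 15 minus that at day 0, and rests on the day 15 libraries labelled Hira-null. Among the receptors these were Fgfr2 at 2.24 (adjusted p = 2.90e-04), Fgfr3 at 0.80 (adjusted p = 0.00865) and Fgfr4 at -1.46 (adjusted p = 0.00510). Among the feedback genes they were Spry4 at 1.49 (adjusted p = 1.76e-04), Dusp6 at 0.87 (adjusted p = 0.00166) and Spry2 at 0.51 (adjusted p = 0.0103). Among the Fgf genes they were Fgf11 at -2.47 (adjusted p = 4.34e-04), Fgf4 at -0.37 (adjusted p = 0.0249), Fgf1 at -0.92 (adjusted p = 0.0268) and Fgf8 at -1.73 (adjusted p = 0.0469).

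For Fgfr2 and Fgf11 the genotype difference was called at both days in opposite directions, and so it was for Dusp6. Of these, the Fgf11 call at day 15 and the Dusp6 call at day 0 were each lost in 3 fits that left out a library (adjusted p up to 0.157 and 0.0790). The between-day calls for Spry2, Fgf1, Fgf4 and Fgf8 were each lost in at least 1 fit that left out a library. The other 6 between-day calls held in all 8 fits that left out a library.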

How the results depend on the processing

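The 22 tested genes and 5 comparisons gave 69 calls of 110, and no result turned its direction while called. Of the 69, 51 held under all 14 alternatives, which include the 8 fits without 1 library. Without each library in turn, 8 of 14 calls held at day 0, 4 of 8 at day 15, 16 of 18 in WT over time, 17 of 19 in Hira-null over time and 6 of 10 between days. The number of genes called lower ran from 3 to 7 at day 0 (7 with all libraries), from 0 to 3 at day 15 (3 with all) and from 2 to 4 for the difference between days (5 with all). At day 0 it was 4 without WT replicate 1, 3 without Hira-null replicate 1 and 4 without Hira-null replicate 2, and at day 15 it was 0 without either WT replicate. With a pseudocount of 0.1, 3 genes had a lower genotype effect at day 15 than at day 0.

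The replicate numbers are shared by label only: deviations of same-numbered libraries correlated at 0.03 at day 0 and -0.10 at day 15. With a replicate block, 6 genes were called higher and 6 lower at day 0, 5 and 2 at day 15, 11 and 8 over time in WT, 11 and 9 over time in Hira-null, and 6 and 4 between days. Over all 14337 tested genes, the block called 2615 higher and 2427 lower at day 0, and 2300 and 2348 at day 15. The main fit had called 2980 and 2785, and 2673 and 2690. Over time the block called 5011 and 4651 in WT and 5258 and 5065 in Hira-null, and between days 1995 and 2182. Among the FGF genes it lost the day 0 calls of Spry1 and Fgf10, the day 15 call of Fgfr1 and the between-day call of Fgf4. It added Fgf13 over time in both genotypes and between days.

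Fragments scaled by depth alone moved the median of all genes over time in WT from 0.03 to 0.155. With 2 libraries a group and 6897009 to 11088835 fragments, genes below 1 FPKM were limited by depth. In fits without a library, the remaining one was taken to vary like the other groups. The causes of these changes were not tested.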
